A study of Mus musculus with 18 samples.

Results

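Sonic hedgehog (Shh) and 3 genes that Hedgehog signalling switches on, Ptch1, Gli1 and Hhip, were followed in the developing mouse lung. They were chosen by gene symbol, as the ligand and its best known targets, and are 4 of the 23420 genes listed for each mouse line. RNA-seq had been performed on whole lungs collected at 14.5 days post coitus (dpc), when the airways branch, in 3 lines of mice with 3 deficient and 3 control samples each, 18 samples in all. The deficient lungs were Rptorf/f; ShhCre/+, Tfamf/f; ShhCre/+ or Cox10f/f; ShhCre/+, and their littermate controls were Rptorf/+; ShhCre/+, Tfamf/+; ShhCre/+ or Cox10f/+; ShhCre/+. Rptor encodes a subunit of the growth regulator mTORC1, Tfam a transcription factor of mitochondrial DNA, and Cox10 a heme enzyme on which cytochrome c oxidase of the respiratory chain depends. The question was how Shh and its targets differed between deficient and control lungs, and whether the targets fell as far as the ligand in the same sample.

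Limits of the model bear on Shh itself. In every sample, controls included, the Cre recombinase was expressed from the Shh locus, and embryos with this allele on both chromosomes are used as Shh-/- in the study, so each lung here carried 1 intact Shh allele. The floxed genes were removed only where Shh is expressed, which in the lung is the epithelium, while RNA came from the whole organ. The controls were heterozygous for the floxed allele. The labels do not say how many embryos went into a sample, so p-values measure only the spread between these samples. In whole lungs, fewer cells of a type and less RNA per cell cannot be told apart.

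Hedgehog signalling in the lung runs from epithelium to mesenchyme. Shh is secreted by the airway epithelium, most strongly at the growing tips, and binds the receptor Ptch1 on mesenchymal cells, which releases Smo, a membrane protein that Ptch1 otherwise holds inactive. Smo in turn activates the Gli transcription factors. Ptch1 and Hhip, both of which bind and restrain Shh at the cell surface, and Gli1, a transcriptional activator, are induced by the pathway and serve as readouts of it, and without Shh the lung hardly branches.

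All 4 genes lie on the reverse strand of the mouse genome (GRCm38, GENCODE M21). Shh (ENSMUSG00000002633.4) spans chr5:28456815-28467256, Ptch1 (ENSMUSG00000021466.12) spans chr13:63508328-63573598, Gli1 (ENSMUSG00000025407.7) spans chr10:127329882-127341974 and Hhip (ENSMUSG00000064325.4) spans chr8:79965851-80058006. RefSeq windows around the transcription start (GRCm38.p6) were matched for Ptch1 and Hhip. Their 250 bases before the start are shown because both genes are direct readouts of Gli factors, which bind the motif GACCACCCA. The window of Hhip is chr8:80058009-80058258 and that of Ptch1 is chr13:63565736-63565985, inside the annotated Ptch1 gene. Capitals mark the places with the fewest mismatches to the motif on either strand, and in Ptch1 3 of these places lie in a single stretch, 2 of them overlapping in all but their end bases.
Hhip: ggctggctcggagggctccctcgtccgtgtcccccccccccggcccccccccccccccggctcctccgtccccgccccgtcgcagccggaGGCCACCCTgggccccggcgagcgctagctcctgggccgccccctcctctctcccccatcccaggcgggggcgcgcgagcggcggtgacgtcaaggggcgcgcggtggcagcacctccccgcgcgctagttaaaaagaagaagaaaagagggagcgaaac
Ptch1: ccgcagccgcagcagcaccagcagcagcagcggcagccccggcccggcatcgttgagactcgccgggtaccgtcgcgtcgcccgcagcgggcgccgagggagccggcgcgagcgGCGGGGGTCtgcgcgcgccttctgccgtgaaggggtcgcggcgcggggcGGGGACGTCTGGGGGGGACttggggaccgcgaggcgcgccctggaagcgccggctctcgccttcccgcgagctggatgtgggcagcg
Hhip had 1 place with 2 mismatches, and Ptch1 had 4 places with 3 mismatches. No exact match was found in either window of 300 bases. Of 32851 mouse promoter windows of this length, 0.253% held an exact match, 6.74% held a match with at most 1 mismatch and 58.3% held a match with at most 2.

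Before the results, 4 libraries stand out. Xist, the RNA of the inactive X chromosome, and a sum of Y-linked genes were both high in Tfam control replicates 2 and 3, Tfam deficient replicate 1 and Cox10 control replicate 3, with Xist at 5265 to 21675 and the Y-linked sum at 1817 to 3806 normalised reads. These 4 were set apart by an Xist level above 5000 together with a Y-linked sum above 500, limits chosen after the values were seen, and are termed libraries of both sexes. The other 3 Tfam libraries also held some Y-linked reads beside high Xist, with a sum of 65.0 in control replicate 1 and 271 and 264 in deficient replicates 2 and 3, against 0.988 to 7.94 in the libraries of the Rptor and Cox10 lines that had high Xist and were not set apart. They were kept in every fit, so no Tfam value comes from libraries free of such reads. Leaving them out takes 2 controls and 1 deficient sample from the Tfam line and 1 control from the Cox10 line, so that a single Tfam control remains, which is assumed to vary like the other samples. The values of the 4 genes without these libraries follow beside the results they touch. Genes of neighbouring tissues were also present. The summed level of 8 markers, 5 of heart muscle (Myh6, Myl7, Tnnt2, Nppa and Actc1) with Alb, Ins2 and Myod1 of other tissues, was 5442 to 13849 in Tfam controls and 9277 to 24988 in Tfam-deficient lungs, against 843 to 6576 in the Cox10 line and 1313 to 3973 in the Rptor line. Of these markers Nppa, a heart hormone, rose in Tfam-deficient lungs (log2 fold change 2.29, limma adjusted p = 0.000273), and no other passed in any line. Library totals were even, at 27727200 to 29611060 normalised reads. What part these reads play in the results was not tested beyond leaving out the libraries. As a check of the labels, Rptor ran from 2197 to 2298 normalised reads in its controls and from 1986 to 2442 in its deficient lungs, Tfam from 1057 to 1185 and from 940 to 1107, and Cox10 from 753 to 824 and from 743 to 829. None of the 3 passed in its own line (limma adjusted p = 0.57, 0.472 and 0.979), in counts that cover the whole gene and all cells of the organ, so this check neither bears out the labels nor goes against them.

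Shh and Hhip fell in Rptor- and Tfam-deficient lungs and Ptch1 in Tfam-deficient lungs, and all 4 genes had a negative log2 fold change in every line. A gene was called at a limma adjusted p below 0.05. By this rule 2 of 4 fell in the Rptor line (Shh and Hhip), where 18.2% of the 14940 genes tested fell. In the Tfam line 3 of 4 fell (Shh, Ptch1 and Hhip), against 2.63% of 15053 genes. In the Cox10 line limma called 0 of 4, against 0.335% of 14937 genes, 3 of 4 had an unadjusted p below 0.05 (Shh, Ptch1 and Hhip), as did 1945 of all 14937 genes (13.02%), and a fit of all 18 samples called Shh (adjusted p = 0.00512) and Hhip (adjusted p = 0.0356), where 1.40% of genes fell. The same limma fit of all 18 samples did not call Shh in the Rptor line (adjusted p = 0.157) or Ptch1 in the Tfam line (adjusted p = 0.0916). The number of genes whose deficient samples all lay below the controls was 2 of 4 in the Rptor line, 4 of 4 in the Tfam line and 3 of 4 in the Cox10 line, while 26.0%, 11.8% and 10.8% of all genes did so. All 4 genes passed the filter on low values in each line.

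Shh, the ligand, was lower in every deficient sample than in every control of its line. In the Rptor line the controls had 1256, 1266 and 1207 normalised reads and the deficient lungs 990.2, 1123 and 1065. The Tfam controls had 980.4, 898.4 and 882.3 and the deficient lungs 483.3, 624.4 and 599.2. In the Cox10 line the controls had 987.6, 1111 and 1008 and the deficient lungs 566.8, 835.6 and 538.7. The 2 low Cox10-deficient lungs sat with the Tfam-deficient ones, while replicate 2 lay nearer its controls, which widened the spread of that group. The fall of Shh passed the threshold in the Rptor line (log2 fold change -0.23 ± 0.069, SE, limma adjusted p = 0.0303) and in the Tfam line (-0.70 ± 0.098, adjusted p = 0.0022). In the Cox10 line the change was -0.70 ± 0.16 and did not pass (limma adjusted p = 0.134). It passed in 1 of 6 fits without a sample, that without Cox10-deficient replicate 2 (-0.90, limma adjusted p = 0.021). The call in the Rptor line was narrow, since leaving out single samples in turn gave, in 4 of 6 fits, an adjusted p between 0.0625 and 0.0916. It was also lost with Xist as a covariate. In that line Xist was high in control replicates 1 and 3 and in deficient replicate 3.

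Ptch1, the receptor that doubles as a target, was lower on average in each line. The Rptor controls had 6022, 6546 and 6160 normalised reads and the deficient lungs 6135, 4879 and 4277. Deficient replicate 1 thus lay within the control range, and the groups overlapped. The Tfam controls had 7234, 6591 and 5421 reads and the deficient lungs 4470, 5232 and 4621. The Cox10 controls had 6245, 7435 and 6760 reads and the deficient lungs 4989, 5757 and 4334. In these 2 lines the groups did not overlap. The limma log2 fold change was -0.31 ± 0.12 in the Rptor line (adjusted p = 0.0685), -0.42 ± 0.099 in the Tfam line (adjusted p = 0.0376) and -0.44 ± 0.11 in the Cox10 line (adjusted p = 0.162). Ptch1 passed in the Rptor line once same-numbered samples, which deviated together in that line, were treated as pairs (limma with replicate block, adjusted p = 0.0427, where 38.6% of all genes passed). Without pairs it passed in 1 of the 6 fits without a sample, that without Rptor-deficient replicate 1 (-0.45, limma adjusted p = 0.00148). Its call in Tfam-deficient lungs was lost in 4 of the 6 fits without a sample (highest adjusted p = 0.158), whereas without the 3 libraries of both sexes it was -0.56 (adjusted p = 0.00285), with a single control left, which has the highest Ptch1 of its group and is assumed to vary like the deficient samples.

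Hhip, the decoy receptor that sequesters the ligand, passed the threshold in 2 lines and had its largest fall in the Tfam line. The Rptor controls had 2910, 2632 and 2208 reads and the deficient lungs 2181, 2048 and 1806. The Tfam controls had 2509, 2418 and 2245 reads and the deficient lungs 1383, 1534 and 1620. The Cox10 controls had 2202, 2582 and 2258 reads and the deficient lungs 1767, 1835 and 1757. No deficient sample reached the controls of its line, although in the Rptor line the lowest control and the highest deficient sample nearly touched. Limma gave -0.36 ± 0.11 in the Rptor line (adjusted p = 0.0328), -0.66 ± 0.072 in the Tfam line (adjusted p = 0.000419) and -0.39 ± 0.067 in the Cox10 line (adjusted p = 0.062). The Tfam call held in all 6 fits that left out a sample, and without the 3 libraries of both sexes, with a single control left that has the highest Hhip of its group, it was -0.67 (adjusted p = 0.000553). Hhip fell in each same-numbered pair of the Rptor line, and the paired fit gave an adjusted p of 0.00278 (limma with replicate block). Without pairs, the Rptor call was lost in 4 of the 6 fits that left out a sample (highest adjusted p = 0.108). The Cox10 change passed in 1 of 6 such fits, that without deficient replicate 3 (-0.38, limma adjusted p = 0.0442).

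Gli1, the transcriptional activator, had the smallest fold change of the 4 genes in each line. The Rptor controls had 3638, 3626 and 3494 reads and the deficient lungs 3479, 3768 and 2760. The Cox10 controls had 3931, 5024 and 4343 reads and the deficient lungs 4279, 4449 and 3670. In both lines the groups overlapped. The Tfam controls had 4970, 5141 and 4578 reads and the deficient lungs 3807, 4506 and 3811, so that only there all deficient samples lay below the controls. The log2 fold changes were -0.12 ± 0.10 for Rptor, -0.28 ± 0.076 for Tfam and -0.10 ± 0.10 for Cox10, and none passed (limma adjusted p = 0.414, 0.0692 and 0.688). The 95% confidence intervals ran from -0.35 to 0.12 for Rptor, from -0.45 to -0.11 for Tfam and from -0.34 to 0.14 for Cox10. Without Rptor-deficient replicate 3, the lowest of its group, the change in the Rptor line was 0.01, and in the Cox10 line fits without single samples ranged from -0.18 to -0.0047. In the Tfam line they ranged from -0.36 to -0.24, and Gli1 passed in 2 of the 6, without control replicate 3 or deficient replicate 2 (limma adjusted p = 0.0315 and 0.0289).

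Without the libraries of both sexes, Shh was at -0.68 in the Tfam line (limma adjusted p = 0.00203) and Gli1 at -0.26 (adjusted p = 0.155). In the Cox10 line, where 1 control was left out, Shh was at -0.72, Ptch1 at -0.45, Gli1 at -0.11 and Hhip at -0.42, and none passed (limma adjusted p = 0.506, 0.595, 0.841 and 0.316).

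**Figure D1:**
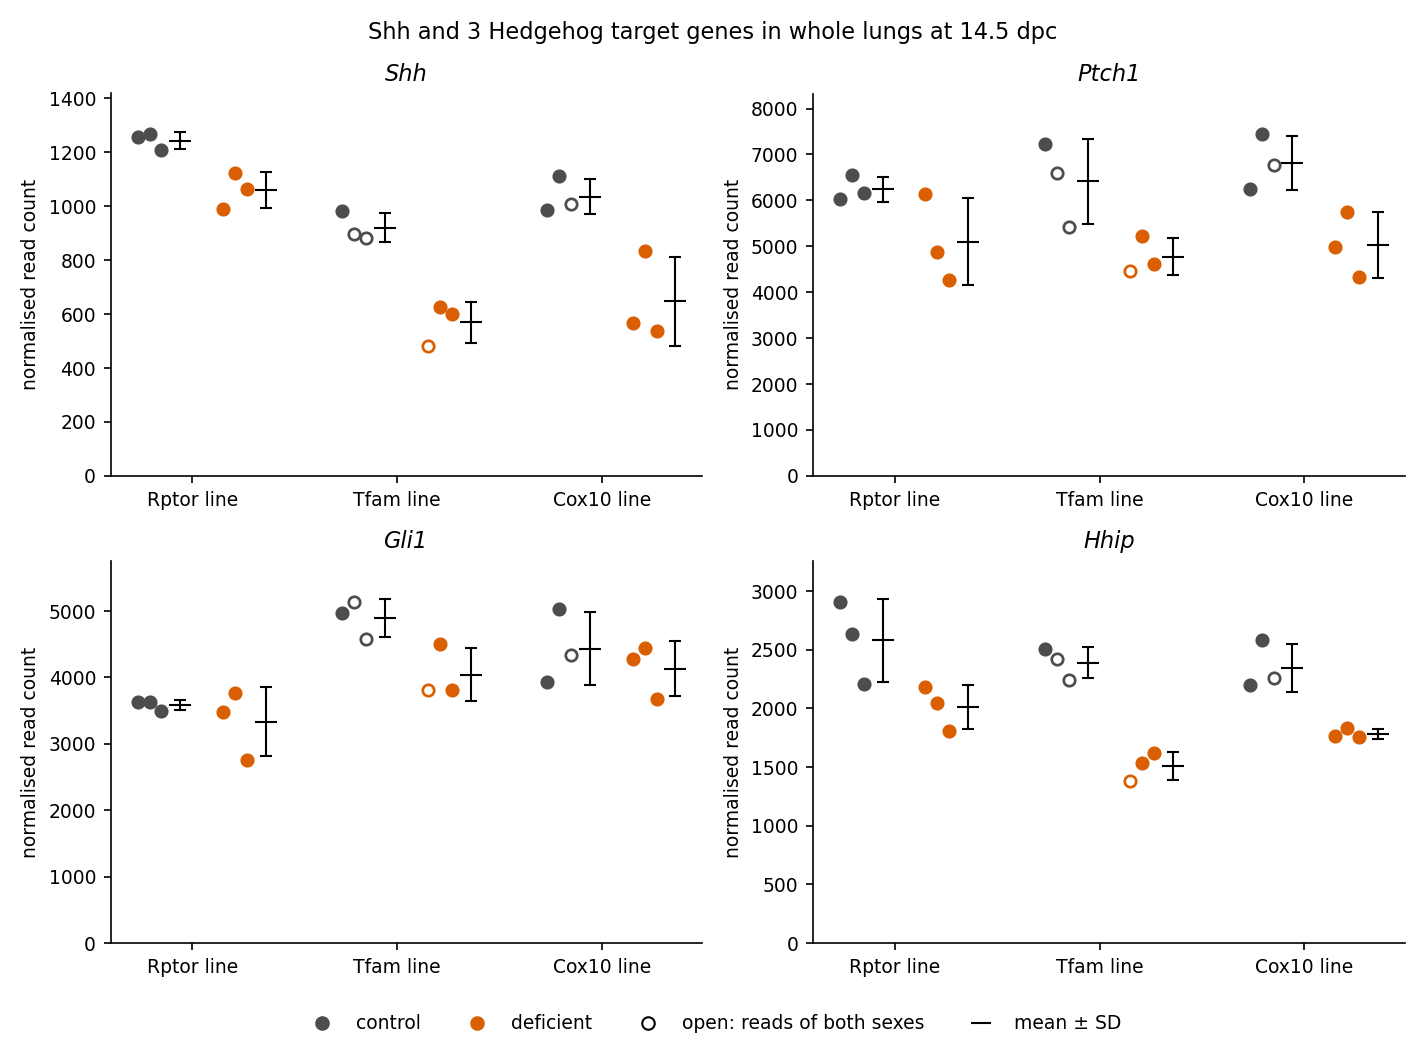
Normalised read count (vertical axis, from 0) of Shh, Ptch1, Gli1 and Hhip in each sample, with control samples in grey and deficient samples in orange for the Rptor, Tfam and Cox10 lines. Open symbols are the 4 libraries with Xist above 5000 and a Y-linked sum above 500 reads, and bars give the mean ± SD of 3 samples. Shh and Hhip of the deficient samples lie below the controls in all 3 lines, while Gli1 overlaps in the Rptor and Cox10 lines.

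**Figure D2:**
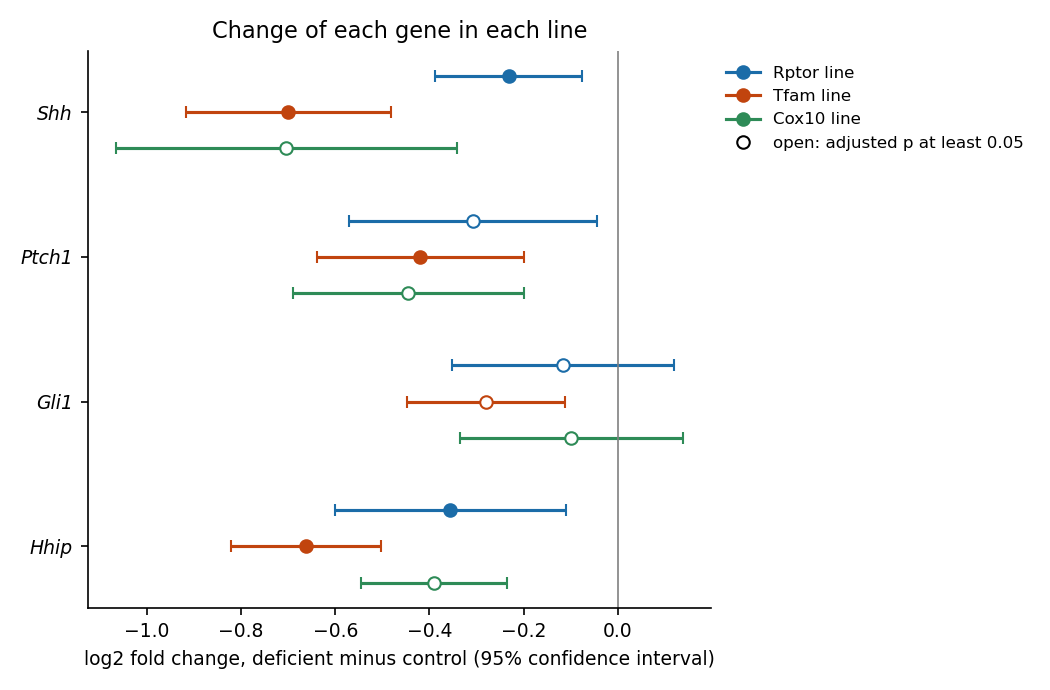
Log2 fold change of each gene, deficient minus control (horizontal axis), with its 95% confidence interval from limma, in the Rptor (blue), Tfam (red) and Cox10 (green) lines. Filled symbols passed an adjusted p of 0.05. Shh stands at -0.23, -0.70 and -0.70 and Gli1 at -0.12, -0.28 and -0.10.

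The sizes of the changes were then compared between lines in a single model of all 18 samples. Shh changed by a further -0.47 in the Tfam line than in the Rptor line (95% confidence interval -0.85 to -0.09), and by a further -0.47 in the Cox10 line (-0.85 to -0.09). Neither difference passed the adjustment over 14550 genes (limma adjusted p = 0.10 and 0.12), where 11.2% and 7.48% of genes did. Each also failed to pass in 17 of the 18 fits without a single sample (highest adjusted p = 0.213 and 0.227). Both passed only without Cox10-deficient replicate 2 (limma adjusted p = 0.0211 and 0.00552), a sample outside the Tfam and Rptor lines. For Hhip the Tfam effect differed from the Rptor effect by -0.31 (adjusted p = 0.143), and with the replicate number as a block it passed (limma adjusted p = 0.0487), as did 15.9% of all genes. That fit also pairs the Tfam samples, although the Tfam line was not taken as paired. Shh in the Tfam and Cox10 lines differed by -0.0041 (95% confidence interval -0.38 to 0.37), a contrast in which 0.0550% of genes passed. No difference between lines passed for Ptch1 or Gli1, and the 95% confidence intervals of these differences lay between -0.51 and 0.35 for Ptch1 and between -0.48 and 0.50 for Gli1. Without the libraries of both sexes Shh differed by -0.45 between the Tfam and Rptor lines and by -0.49 between the Cox10 and Rptor lines (limma adjusted p = 0.317 and 0.197).

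Levels between the genes can be set side by side only per length of their exons. Per kilobase, Gli1 was the most abundant in control lungs (700 to 1029 normalised reads per kilobase over the 9 samples), followed by Ptch1 (382 to 524), Shh (310 to 445) and Hhip (243 to 321). The ranges of Ptch1 and Shh overlapped, as did those of Shh and Hhip. In deficient lungs Gli1 still led (553 to 902), and Shh (170 to 394) overlapped with both Ptch1 (302 to 432) and Hhip (152 to 240). The annotated exons of Ptch1 and Hhip add up to 14.2 and 9.08 kilobases, and exons not used in the lung would lower their values on this scale.

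The fall of the targets was then related to that of the ligand in the same sample. Expressed as a share of the control mean of its line, Shh stood at 79.7%, 90.4% and 85.7% in Rptor-deficient replicates 1 to 3, at 52.5%, 67.8% and 65.1% in the Tfam-deficient ones and at 54.7%, 80.7% and 52.0% in the Cox10-deficient ones. Hhip stood at 84.4%, 79.3% and 69.9%, at 57.8%, 64.1% and 67.7%, and at 75.3%, 78.2% and 74.8% in the same samples. Among Tfam-deficient lungs the 2 genes thus kept within 5.31 percentage points of each other in each sample. In the Cox10 line Hhip was even over samples in which Shh ranged from 52.0% to 80.7%.

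Ptch1 stood at 98.3%, 78.2% and 68.5% in the Rptor-deficient samples, at 69.7%, 81.6% and 72.0% in the Tfam-deficient samples and at 73.2%, 84.5% and 63.6% in the Cox10-deficient samples. Gli1 stood at 97.0%, 105% and 77.0%, at 77.8%, 92.0% and 77.8%, and at 96.5%, 100.4% and 82.8%. Among the 9 deficient samples, the share of Gli1 was above that of Shh in 8, that of Ptch1 in 7 and that of Hhip in 5. The Cox10-deficient replicate 2 had the highest Shh, Ptch1, Gli1 and Hhip of its group, and the Tfam-deficient replicate 1 the lowest of all 4.

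**Figure D3:**
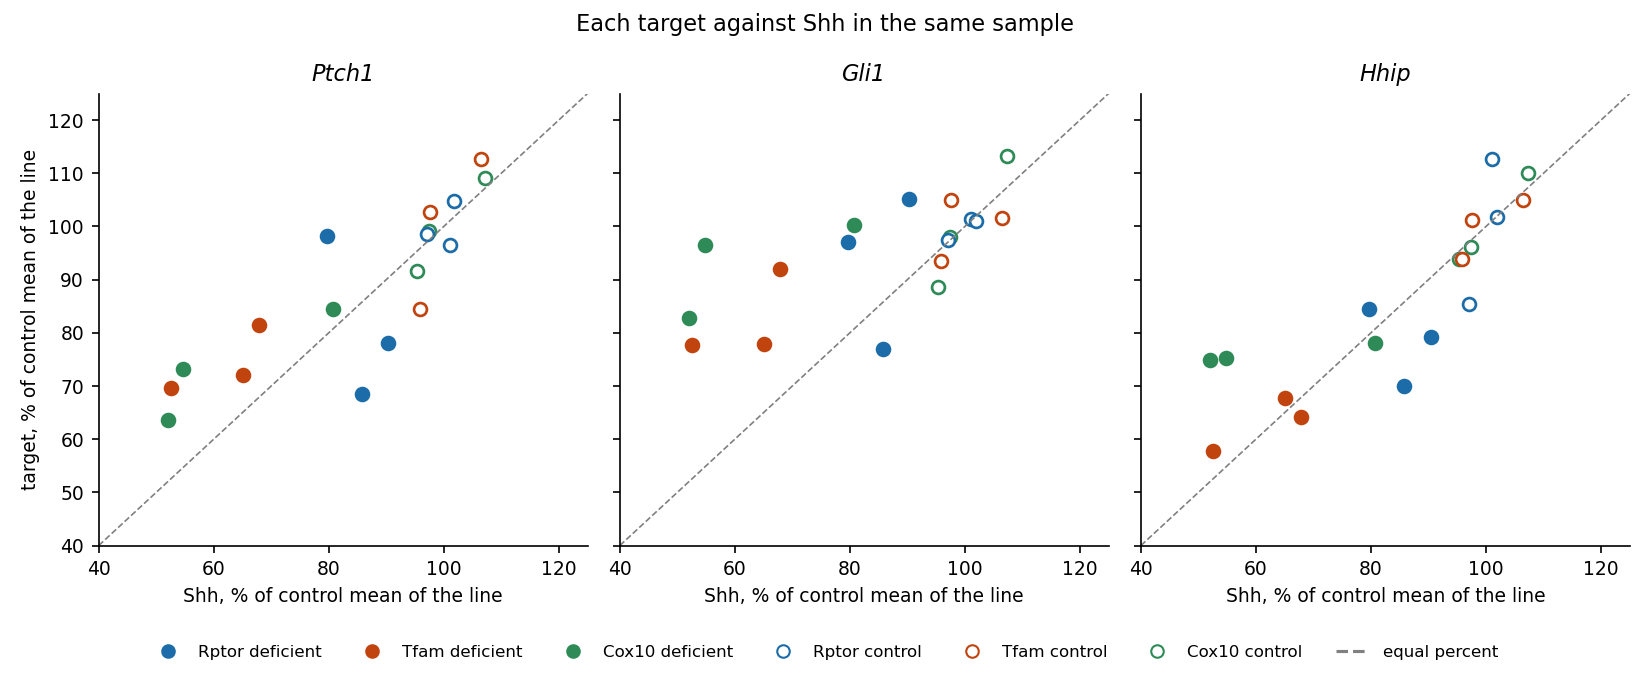
Ptch1, Gli1 and Hhip (vertical axes) against Shh (horizontal axis) in the same sample, each as a percent of the control mean of its line. Filled symbols are deficient and open symbols control samples of the Rptor (blue), Tfam (red) and Cox10 (green) lines, and the dashed line marks equal percent. Gli1 lies above the line in 8 of 9 deficient samples.

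A ratio within each sample cancels the scaling of the library, but not the shares of epithelium and mesenchyme in the lung. By this measure Gli1 per Shh was 2.90, 2.86 and 2.89 in the Rptor controls and 3.51, 3.35 and 2.59 in the deficient lungs. In the Tfam line it was 5.07, 5.72 and 5.18 against 7.86, 7.21 and 6.35, and in the Cox10 line 3.98, 4.52 and 4.30 against 7.54, 5.32 and 6.80. The deficient samples were above all controls in the Tfam and Cox10 lines and overlapped with them in the Rptor line. The log2 ratio of Gli1 to Shh differed by 0.12 for Rptor, 0.42 for Tfam and 0.61 for Cox10, with a mean of 0.38 (exact permutation test within lines, two-sided, adjusted p = 0.0045 over the 3 targets, with 8000 arrangements and a smallest p of 0.00025). With 3 samples against 3, an exact permutation test within a line cannot go below p = 0.1. Without the 4 libraries of both sexes the mean was 0.38 (adjusted p = 0.035, exact permutation test).

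For Ptch1 the log2 ratio to Shh differed by -0.08, 0.28 and 0.26, with a mean of 0.15 (exact permutation test, adjusted p = 0.158). It did not pass in 17 of the 18 fits without a single sample, and passed only without Rptor-deficient replicate 3 (0.20, exact permutation test, adjusted p = 0.0413). Without the libraries of both sexes the Tfam value was 0.12 and the mean 0.11 (exact permutation test, adjusted p = 0.40). For Hhip it differed by -0.12, 0.04 and 0.31, with a mean of 0.08 (exact permutation test, adjusted p = 0.389), and without those libraries the Tfam value was 0.0091 and the mean 0.06 (adjusted p = 0.542). Of the 3 targets, Gli1 alone had a change that differed from that of Shh over the lines, although its own fall passed in no line. A gene that did not change would also rise relative to Shh, and the share of all genes passing this test was not counted. Whether Ptch1 and Hhip fell as far as Shh was not resolved at this number of samples.

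Apart from the group differences, Shh and the targets were also related within groups, where the relation passed the test for Hhip over all 18 samples but not without the libraries of both sexes. Over 18 deviations from the 6 group means, Shh and Hhip had Pearson's r = 0.38 (permutation within groups, adjusted p = 0.0273 over 6 pairs) and Spearman's rho = 0.53 (adjusted p = 0.0318). The permutation treats samples as independent, although same-numbered samples of the Rptor line deviated together. For Shh and Ptch1, r was 0.50 (permutation, adjusted p = 0.0951) and rho 0.49 (adjusted p = 0.0926), and for Shh and Gli1 r was 0.49 (permutation, adjusted p = 0.089) and rho 0.59 (adjusted p = 0.0522). Without the 2 samples farthest in Shh, Cox10-deficient replicates 2 and 3, r was 0.46 for Hhip, 0.26 for Ptch1 and 0.38 for Gli1. The relation of Shh with Ptch1 thus rested largely on those 2 samples. Leaving out the libraries of both sexes leaves a single Tfam control, which has no deviation from its own mean and cannot be permuted. Over the 14 samples left without the libraries of both sexes, r was 0.21 for Shh and Hhip (permutation within groups, adjusted p = 0.257), 0.45 for Shh and Ptch1 (adjusted p = 0.317) and 0.46 for Shh and Gli1 (adjusted p = 0.231).

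The targets were also related to each other within groups. Ptch1 and Gli1 had r = 0.74 and rho = 0.76 (permutation, adjusted p = 0.0273 and 0.0318), and r remained 0.72 without the 2 farthest samples. Ptch1 and Hhip had r = 0.57 and rho = 0.60, and Gli1 and Hhip r = 0.58 and rho = 0.63, with the same adjusted p of 0.0273 for r and 0.0318 for rho in both pairs (permutation). Without the 2 farthest samples these pairs had r = 0.43 and 0.52. Without the libraries of both sexes r was 0.76 for Ptch1 and Gli1, 0.49 for Ptch1 and Hhip and 0.54 for Gli1 and Hhip, and none passed over 14 samples (permutation within groups, adjusted p = 0.21 in each pair). The counts of all 4 genes share the depth and make-up of a library, which were not separated from these relations.

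Since Shh is made by the epithelium, its level was also set against that of 3 genes of all lung epithelial cells, Epcam and Cdh1, which hold epithelial cells together, and Nkx2-1, the transcription factor of lung identity. In the Rptor line these markers fell further than Shh. Cdh1 fell by 1.89 on the log2 scale, Nkx2-1 by 0.85 and Epcam by 0.77 (limma adjusted p = 2.16e-05, 0.000738 and 0.00199), and 19 of 20 epithelial markers fell, with a median of -1.01 against 0.01 over all genes. In the Tfam line 10 of 20 fell, with a median of -0.29, and in the Cox10 line 5 of 20 fell, with a median of -0.38. Over all genes 18.2%, 2.63% and 0.335% fell by line. The summed level of the 20 markers went from 43850 to 44751 in Rptor controls to between 18764 and 24760 in deficient lungs, from 44311 to 46379 down to between 36444 and 39362 in the Tfam line, and from 33329 to 34294 down to between 23070 and 30948 in the Cox10 line.

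Shh per epithelial marker was therefore higher in deficient lungs in the Rptor line and lower in the Tfam line. In the Rptor line it was 0.236, 0.249 and 0.231 in the controls and 0.504, 0.472 and 0.403 in the deficient lungs. For the Tfam line it was 0.212, 0.197 and 0.184 in the controls and 0.133, 0.164 and 0.145 in the deficient lungs. In the Cox10 line it was 0.251, 0.284 and 0.262 in the controls and 0.217, 0.287 and 0.157 in the deficient lungs. Every Rptor-deficient sample lay above its controls, every Tfam-deficient sample lay below, and the Cox10 groups overlapped. On the log2 scale the differences were 0.94 ± 0.10 (SE), -0.43 ± 0.11 and -0.31 ± 0.26, and each has an exact permutation p at or above the smallest possible of 0.1 (0.1, 0.1 and 0.4). With all 20 markers they were 0.81, -0.44 and -0.35, and without the libraries of both sexes the Tfam and Cox10 values were -0.46 and -0.32.

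The difference between lines in this relative level was tested with limma on all genes after subtracting the marker mean in each sample. The Tfam effect on Shh lay below the Rptor effect by -1.37 ± 0.22 (adjusted p = 2.77e-05) and the Cox10 effect by -1.25 ± 0.22 (adjusted p = 0.000147). Subtracting markers that fell furthest in the Rptor line moves every gene the same way, and 88.9% and 84.9% of all genes passed in these contrasts, so the test says little that is particular to Shh. Between the Cox10 and Tfam lines the relative level of Shh differed by 0.12 ± 0.22 (limma adjusted p = 0.966), where 0.0275% of genes passed. How much of the fall of whole-lung Shh goes with the number of epithelial cells was not tested.

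**Figure D4:**
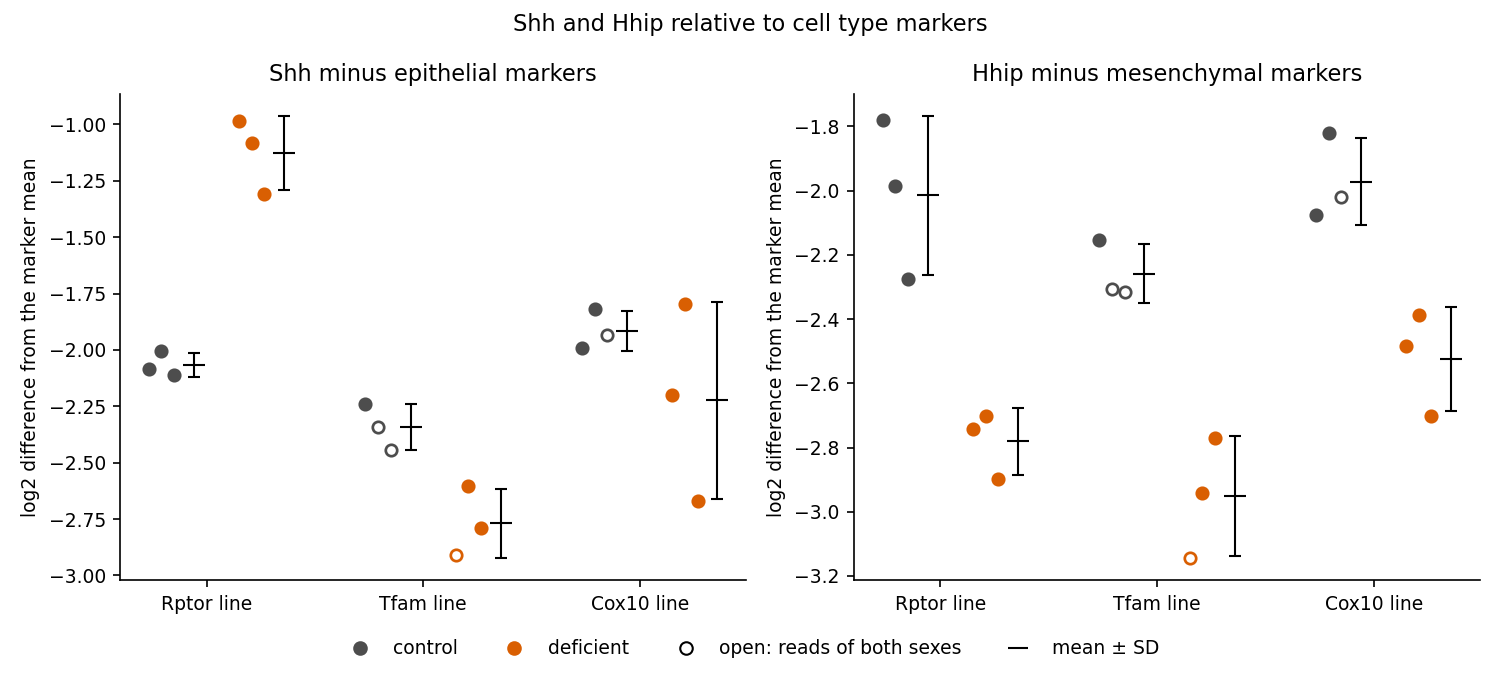
Log2 level of Shh minus the mean of 3 epithelial markers (left vertical axis) and of Hhip minus the mean of 6 mesenchymal markers (right vertical axis) in each sample, with mean ± SD of 3 samples, controls in grey, deficient samples in orange and libraries of both sexes as open symbols. Relative Shh is higher in Rptor-deficient lungs by 0.94 and lower in Tfam-deficient lungs by 0.43, while relative Hhip is lower in all 3 lines.

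The targets respond mainly in mesenchyme and were set against 6 genes of that tissue, the transcription factors Tbx4, Tbx5 and Meox2, the receptor Pdgfrb and the collagens Col1a2 and Col3a1. Relative to these, Hhip stood at 0.291, 0.252 and 0.207 in the Rptor controls against 0.150, 0.154 and 0.134 in the deficient lungs. It stood at 0.225, 0.202 and 0.201 against 0.113, 0.130 and 0.147 in the Tfam line, and at 0.237, 0.283 and 0.247 against 0.179, 0.191 and 0.154 in the Cox10 line. All deficient samples lay below their controls. The log2 difference averaged -0.67 over lines for Hhip, -0.59 for Ptch1 and -0.37 for Gli1 (exact permutation test within lines, adjusted p = 0.000375, 0.000375 and 0.001). Markers that rise in the denominator lower the relative level of every gene alike, and the share of all genes passing this test was not counted. Without the libraries of both sexes the averages were -0.68, -0.64 and -0.36 (exact permutation test, adjusted p = 0.0025, 0.0025 and 0.00833). For Gli1 the value was -0.53 in the Rptor line, where its whole-lung change was -0.12, -0.31 for Tfam and -0.26 for Cox10, where the groups overlapped (exact permutation p = 0.3). In the Rptor line 3 of the 6 genes of the denominator themselves rose, Col1a2 by 1.08, Col3a1 by 0.95 and Pdgfrb by 0.36 on the log2 scale (limma adjusted p = 8.18e-05, 9.17e-05 and 0.00169), while Tbx4, Tbx5 and Meox2 were at -0.04, 0.02 and 0.09 (adjusted p = 0.654, 0.877 and 0.349). Over the 12 mesenchymal markers 6 rose in the Rptor line and 0 passed in the other lines, against 16.6%, 2.03% and 0.141% of all genes that rose in the Rptor, Tfam and Cox10 lines.

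The remaining genes of the pathway were followed by role. Of the other ligands, Dhh was low, at 21.7 to 63.9 reads over the 18 samples, and did not pass in any line, and Ihh was below the filter at 1.98 to 12.1. Among 5 genes for ligand acylation and release, 4 rose in the Rptor line, where 16.6% of all genes rose, with a median of 1.20 over the list against 0.01 over all genes. Scube2, Scube3 and Scube1, secreted proteins that carry Shh away from the cells that make it, rose by 1.22, 1.21 and 1.20 on the log2 scale (limma adjusted p = 0.00212, 0.000151 and 0.0017), and Disp1, which exports the ligand, by 0.29 (adjusted p = 0.0441). The call of Disp1 held in 1 of the 6 fits without a sample (highest adjusted p = 0.131), and those of the Scube genes in all 6. None of the 5 passed in the Tfam or Cox10 line, where the medians were 0.02 and 0.18 and 2.03% and 0.141% of all genes rose. In the Rptor-deficient samples 6 of the 12 mesenchymal markers also rose, and their part in the values of the Scube genes and Disp1 was not tested.

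Co-receptors of Shh rose in Rptor-deficient lungs, where Ptch1 and Hhip had negative fold changes. Gas1, Cdon and Boc, which help Shh bind Ptch1, rose by 0.86, 0.64 and 0.62 in the Rptor line (limma adjusted p = 0.000439, 0.00245 and 0.000424), and Lrp2, an endocytic receptor of Shh, by 1.27 (adjusted p = 0.000151). In that line 16.6% of all genes rose, and 6 of the 12 mesenchymal markers rose in the same samples, with a median of 0.58 over the list, among them Pdgfra by 0.69, Tcf21 by 0.77 and Col1a1 by 1.14 (limma adjusted p = 0.000164, 6.1e-05 and 0.000247). Their part in the values of the co-receptors was not tested. In the Tfam and Cox10 lines these 4 genes were between 0.04 and 0.35 and did not pass.

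Among 15 signal transducers beside Gli1, only Smo passed, with 0.17 in the Rptor line (limma adjusted p = 0.0259), a call that held in 2 of the 6 fits without a sample, while 16.6% of all genes rose and 18.2% fell there. None of the 15 passed in the Tfam or Cox10 line, and their median lay at 0.09 for Rptor, -0.02 for Tfam and -0.02 for Cox10. Gli2 and Gli3, the other Gli factors, were at 0.25 and 0.28 in the Rptor line (adjusted p = 0.0629 and 0.0872), and passed in the paired fit of that line (limma with replicate block, adjusted p = 0.0367 and 0.0263), as did 38.6% of all genes.

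Of 15 other genes known as Hedgehog targets, 5 rose and 5 fell in the Rptor line, 1 rose and 2 fell in the Tfam line and 1 fell in the Cox10 line. Over all genes 16.6% rose and 18.2% fell in the Rptor line, 2.03% rose and 2.63% fell in the Tfam line and 0.335% fell in the Cox10 line. Of the 5 that rose in the Rptor line, the calls of Foxl1, Tbx2 and Bcl2 held in 1, 1 and 2 of the 6 fits without a sample. Myocd, the coactivator of smooth muscle genes, was the one that fell in all 3. It had 504.6, 448.6 and 389.9 reads in the Rptor controls against 311, 244.6 and 164, 407.4, 418.4 and 344.1 against 230.3, 234.3 and 176 in the Tfam line, and 575.7, 593.1 and 512.7 against 285, 229 and 175 in the Cox10 line. Its log2 fold change was -0.94, -0.87 and -1.31 (limma adjusted p = 0.0108, 0.00287 and 0.0265). The Rptor and Tfam calls held in all fits that left out a sample, and the Cox10 call in 2 of 6. Myocd also stands in the list of 8 smooth muscle markers, of which 5 fell with loss of Rptor, 5 with loss of Tfam and 1 with loss of Cox10.

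Other targets went separate ways. Foxf2, a mesenchymal forkhead factor, fell by 0.73 in the Rptor line (limma adjusted p = 0.000253) and was at -0.30 and 0.07 in the Tfam and Cox10 lines. Ccnd2, a cell cycle cyclin, fell by 0.49 in the Rptor line (adjusted p = 0.00642), and Wnt5a, a secreted Wnt ligand, fell by 0.45 in the Tfam line (adjusted p = 0.00957), a call that held in 4 of the 6 fits without a sample. Bmp4, a secreted growth factor that the epithelial tips also make, rose by 0.63 on loss of Rptor and by 0.61 on loss of Tfam (limma adjusted p = 0.000493 and 0.000207) and was at 0.47 in the Cox10 line (adjusted p = 0.096). Osr1, a zinc finger factor of early lung mesoderm, rose by 0.83 in the Rptor line (adjusted p = 0.00275). Fgf10, the mesenchymal growth factor that draws out lung buds and that Shh is known to restrain, rose by 1.87 on loss of Rptor and by 0.93 on loss of Tfam (limma adjusted p = 2.51e-05 and 3.82e-05) and was at 1.00 in the Cox10 line (adjusted p = 0.0525), with no overlap between groups.

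**Figure D5:**
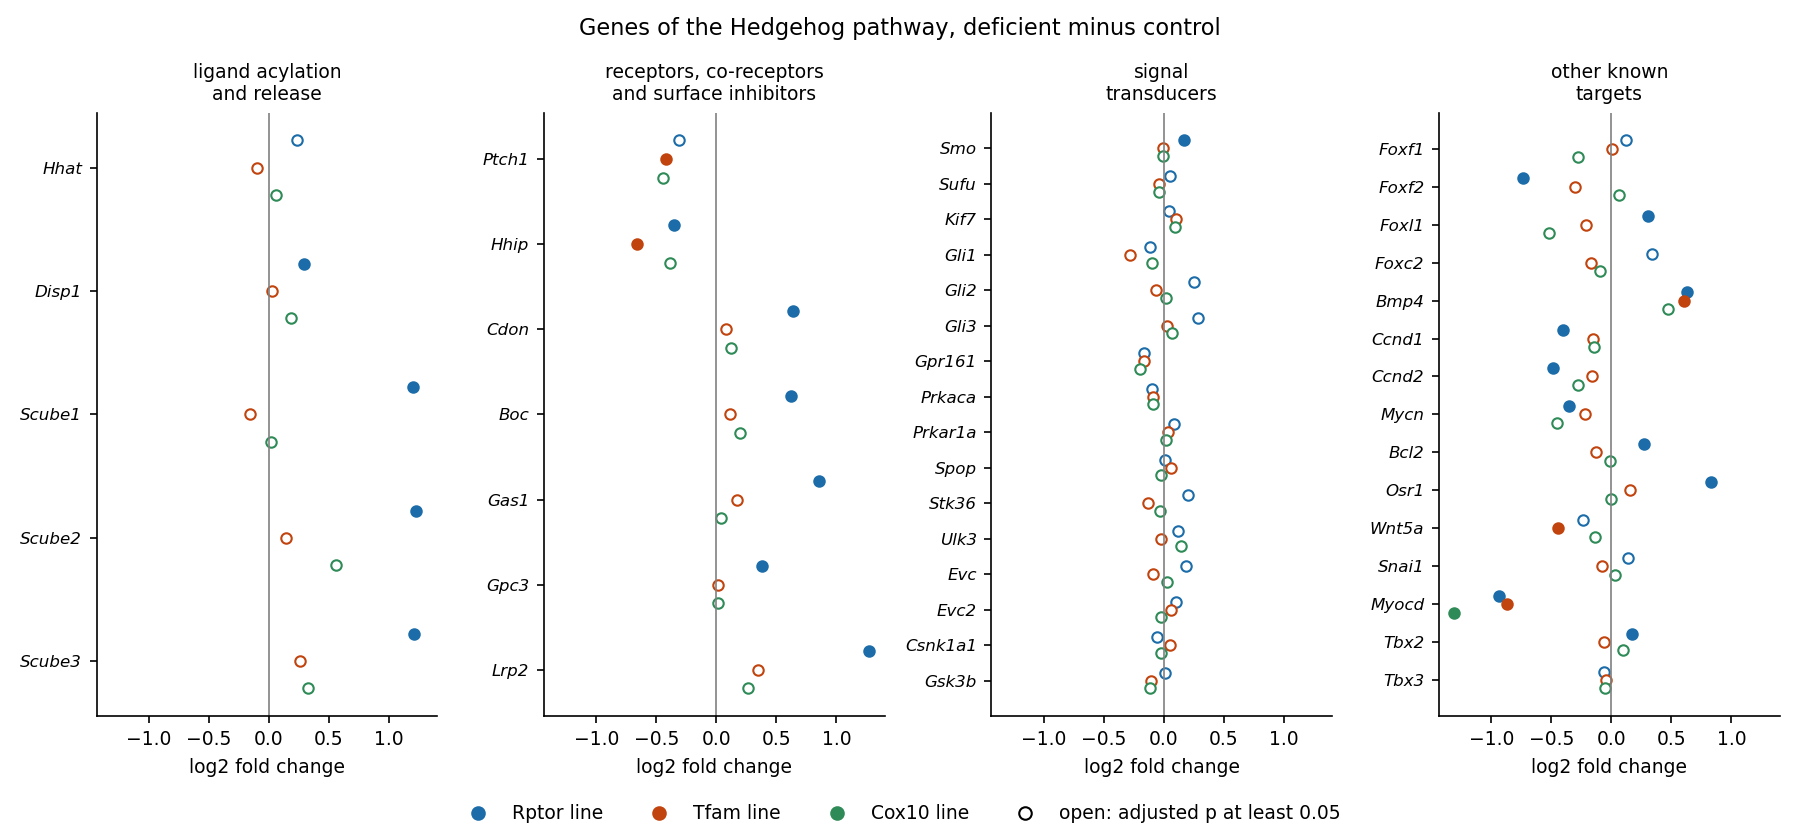
Log2 fold change, deficient minus control (horizontal axes), of Hedgehog pathway genes grouped by role, in the Rptor (blue), Tfam (red) and Cox10 (green) lines. Filled symbols passed an adjusted p of 0.05. Ptch1 and Hhip lie below 0 in all 3 lines, and the co-receptors Cdon, Boc, Gas1 and Lrp2 and the Scube genes rise in the Rptor line.

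As a description, the genes whose pattern was most like each of the 4 were listed, by Pearson's r over the 18 samples after centring each line, among 12585 genes with a mean of at least 50. For Shh they were Gtf2a1 (r = 0.90), Pth1r (0.90) and Patz1 (0.873). Hhip ranked 9th (0.852) and Ptch1 17th (0.832) of these genes for Shh, and Gli1 ranked 470th (0.657). For Ptch1 they were Pag1 (0.923), Usp54 (0.920) and Etl4 (0.910), for Gli1 Pkmyt1 (0.887), Ylpm1 (0.874) and Ipo9 (0.861), and for Hhip Gprc5c (0.928), Pak3 (0.913) and Plxnb1 (0.906). Each line holds both deficient and control samples, so these values hold both the group difference and the spread within groups.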

How the data were processed

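Whole-lung RNA of 18 samples (6 groups of 3) had been extracted with TRIzol and a column kit and sequenced on a BGISEQ-500 per the study's methods, while the labels name Illumina library protocols. The processing notes name mm10, Trim Galore, HISAT2, featureCounts and DESeq2 without versions. The authors deposited, per line, a table of a normalised signal (read count divided by a size factor), in which 100% of values were whole multiples, within 0.001 of a step, of a step of 0.978 to 1.02, so a value is close to a number of reads. Their fold changes and p-values were not used. A pair of symbols that a spreadsheet had rewritten as dates was kept unchanged.

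Values were analysed as log2(value + 1), so fold changes of low genes are understated. Genes that reached 10 in 3 or more of a line's 6 samples were fitted per line with limma 3.58.1 in R 4.3.3 (eBayes with trend), adjusted by Benjamini-Hochberg over all genes tested, two-sided, at 0.05. Differences between lines came from a fit of 18 samples in 6 groups. Ratios were tested by exact permutation within lines, and correlations by 100000 permutations within groups. Limma and the permutation test were tested on simulated data. Replicate numbers come from the titles. Same-numbered deviations correlated at 0.22, 0.33 and 0.26 in the Rptor line, which was also fitted with pairs, and at -0.31, -0.21 and 0.15 in the Tfam line and 0.45, 0.20 and 0.049 in the Cox10 line, which were not taken as paired.

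The 4 genes and all lists were chosen with earlier results of these data known. From each pathway list the text names up to 6 genes with the largest change among those past the threshold, Fgf10 was named on its own, and Gli2, Gli3, Dhh, Ihh, Foxl1, Tbx2, Bcl2 and the markers Pdgfra, Tcf21, Col1a1, Myh11 and Acta2 were added after their values were seen. Of the listed genes, Grk2, Hbb-bt and Hbb-bs were not matched. A gene of the receptor list is not reported here, so no count over that list is given. Alternatives were another scaling, no filter, a pseudocount of 0.1, all samples in one fit, Xist as covariate, the replicate block and leaving out samples.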

Additional observations from a re-analysis of the deposited data

Results flagged for a closer look

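The effect on Shh relative to the epithelial markers Epcam, Cdh1 and Nkx2-1 differed between lines in a test of the difference itself. In the Tfam line it lay below that in the Rptor line by -1.37 on the log2 scale (limma adjusted p = 2.77e-05), and the Cox10 effect did so by -1.25 (limma adjusted p = 0.000147). All 3 Rptor-deficient samples were above their controls and all 3 Tfam-deficient samples below theirs. In the same contrasts 88.9% and 84.9% of all genes passed, and the markers subtracted fell furthest in the Rptor line. The fit was added after the data were seen.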

How the results depend on the processing

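Of 618 alternative values over 40 results, 547 kept their direction and their side of the threshold (or, for counts of genes, stayed within 1.5 times). With the replicate number as a block, Ptch1 in the Rptor line (-0.31), Gli1 in the Tfam line (-0.28) and the Hhip difference of the Tfam and Rptor lines (-0.31) newly passed. The Gli1 and Hhip results rest on pairs in the Tfam line, which was not taken as paired. Pairing changed no other call of the 4 genes. Each sample correlated best with its own number in 3 of 3 cases in the Rptor line and in 1 of 3 in either other line. One fit of all 18 samples lost Shh in the Rptor line (-0.23) and Ptch1 in the Tfam line (-0.42), added Shh (-0.70) and Hhip (-0.39) in the Cox10 line, and called 399 genes for Tfam and 327 for Cox10 in place of 702 and 71. Xist as a covariate lost Shh (-0.24) and added Ptch1 (-0.37) in the Rptor line and called 117 genes in the Cox10 line. Without a filter Ptch1 in the Tfam line did not pass (-0.42). Without the libraries of both sexes 3 genes were called in the Cox10 line, the Ptch1 difference of the Cox10 and Tfam lines turned to 0.11, and no correlation within groups passed (0.21 for Shh and Hhip, 0.76 for Ptch1 and Gli1, 0.49 for Ptch1 and Hhip and 0.54 for Gli1 and Hhip), over 14 samples in place of 18. The causes were not tested.

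Leaving out each sample in turn gave, in the Rptor line, -0.27 to -0.18 for Shh, -0.45 to -0.19 for Ptch1, -0.21 to 0.014 for Gli1 and -0.46 to -0.27 for Hhip. Tfam fits gave -0.54 to -0.33 for Ptch1, -0.36 to -0.24 for Gli1 and 354 to 1114 genes called, and in the Cox10 line -0.90 to -0.59 for Shh, -0.18 to -0.0047 for Gli1, -0.43 to -0.32 for Hhip and 3 to 255 genes called. The difference of Tfam and Rptor ranged over -0.54 to -0.36 for Shh and -0.23 to 0.030 for Ptch1, that of Cox10 and Rptor over -0.67 to -0.36 for Shh, -0.26 to 0.0049 for Ptch1, -0.11 to 0.11 for Gli1 and -0.13 to 0.074 for Hhip, and that of Cox10 and Tfam over -0.20 to 0.11 for Shh and -0.13 to 0.091 for Ptch1. Over all lines Ptch1 relative to Shh ranged over 0.092 to 0.20, and Shh relative to epithelial markers over -0.0028 to 0.14, with its main value of 0.07 (exact permutation p = 0.715) turned by leaving out Cox10-deficient replicate 2. The planned tests of counts with edgeR and DESeq2 were not run, because the unit check of the tables did not accept them as counts.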

Other observations

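Smooth muscle forms from mesenchyme beside the airways, where Shh is known to act, and its contractile genes did not move as one. Myh11, the heavy chain of smooth muscle myosin, fell by 1.51 on the log2 scale in the Rptor line and by 0.84 in the Tfam line (limma adjusted p = 0.00807 and 6.33e-05) and was at -0.94 in the Cox10 line (adjusted p = 0.331). Acta2, smooth muscle actin, rose by 0.47 in the Rptor line (limma adjusted p = 0.041), where it had 13693, 10378 and 12900 normalised reads in the controls and 21504, 14794 and 15272 in the deficient lungs, and fell by 0.34 in the Tfam line (adjusted p = 0.0419). Both calls of Acta2 were lost in some fits that left out a sample, in 3 of 6 for the Rptor line and in 4 of 6 for the Tfam line. Of the 8 smooth muscle markers 5 fell and 1 rose in the Rptor line, 5 fell in the Tfam line and 1 fell in the Cox10 line, while over all genes 18.2% fell and 16.6% rose with loss of Rptor, 2.63% fell with loss of Tfam and 0.335% fell with loss of Cox10. Their median log2 fold change was -0.85, -0.50 and -0.86 by line, against 0.01, 0.00 and 0.00 over all genes.

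Markers of other tissues rose in Rptor-deficient lungs. There 4 of 6 mesothelial markers rose (median 0.82), as did 5 of 7 endothelial markers (median 0.34), against 0 of 6 and 0 of 7 called in the Tfam line and again in the Cox10 line with limma. Over all genes 16.6% rose with loss of Rptor, 2.03% with loss of Tfam and 0.141% with loss of Cox10. The part of these markers in the values of Shh and its targets was not tested.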
